A study of Mus musculus with 12 samples.

Results

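The Cyp2 family of cytochrome P450 genes was followed in RNA-seq libraries of 12 mice, 6 MYC-ON livers and 6 liver cancer xenografts, each on a control diet or a No-Trp diet. The members were the gene symbols formed by Cyp2, a subfamily letter and a number. They came to 48 of the 24062 symbols in the count data: 4 in subfamily Cyp2a, 5 in Cyp2b, 15 in Cyp2c, 9 in Cyp2d, 7 in Cyp2j and 1 each in Cyp2e, Cyp2f, Cyp2g, Cyp2r, Cyp2s, Cyp2t, Cyp2u and Cyp2w. The pattern left out 3 other Cyp2 symbols, namely Cyp2ab1 and the pseudogenes Cyp2c53-ps and Cyp2d37-ps.

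The livers came from male LAP-tTA/TRE-MYC mice on the FVB background. In these mice the LAP-tTA driver switches on the MYC transgene in the liver once doxycycline, given to the breeders at 1 mg/mL, is withdrawn at birth. The labels give an age of 45 days for the MYC males in a comparison with normal males, and none for the diet groups by themselves. For 21 days mice 101, 102 and 103 ate the control diet, whereas 105, 107 and 108 were fed without tryptophan (Trp) on the No-Trp diet. The xenografts were grown from HCC53N, a single line of mouse liver cancer cells without p53 and with mutant NRAS, under the skin of female hosts labelled NOD-SKID. The labels list these cells as MYC ON too. Hosts 40, 41 and 43 were controls, hosts 35, 36 and 37 were fed without Trp, again for 21 days, and the age of the hosts is not given in the sources used here. Every group carries a cancer driver, so none of them is a normal liver. In a comparison of livers with xenografts, the tumor line, the tissue site, the host strain and the sex of the mice cannot be told apart.

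Cytochromes P450 are haem enzymes of the endoplasmic reticulum that insert oxygen into their substrates with electrons from the P450 reductase POR. Hepatocytes express most of the Cyp2 genes, whose enzymes oxidize drugs and other foreign chemicals, steroids, bile acids, retinoids and fatty acids. Several of them respond to the nuclear receptors CAR (Nr1i3) and PXR (Nr1i2), several are expressed more in female than in male mouse liver or the reverse, and some are placed along the liver lobule, such as Cyp2e1 around the central vein and Cyp2f2 around the portal vein. Genes of the same subfamily stand side by side in the genome and are similar in sequence.

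Each library held between 14660963 and 26085349 reads on genes. Levels are given as CPM, reads per 1000000 of a library size corrected with TMM factors, which were set for the livers and for the xenografts separately. Differences come from edgeR's quasi-likelihood test over all genes, and a gene was called when its Benjamini-Hochberg adjusted p was at most 0.05 and its fold change at least 2. The errors of log2 fold changes are standard errors worked back from the log2 fold change and the F statistic of that test. Levels are means ± SD of 3 mice. Because a permutation test of a single value with 3 against 3 mice cannot go under 0.1, p-values are those of the fit across all genes. The sources do not say whether the mice of a group came from separate litters or experiments, and the p-values measure the spread between these mice only.

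A single control liver stood apart in these genes. Cyp2 reads made up 0.624% of the reads on genes in control mouse 102, against 0.0713% in mouse 101 and 0.0885% in mouse 103. The No-Trp livers held 0.720% in mouse 105, 1.10% in mouse 107 and 0.711% in mouse 108, so control mouse 102 lay near the No-Trp group. Of the 36 members with enough reads for the test, 34 were highest in mouse 102 among the 3 control mice, whereas 34.9% of all genes tested were highest there. The summed level of 11 hepatocyte markers was 14469 CPM in control mouse 101, 39696 CPM in 102 and 12473 CPM in 103, and 63545, 132112 and 52428 CPM in No-Trp mice 105, 107 and 108. None of these markers was at 0 in all livers, and 5 of the 11 were called higher on the No-Trp diet. The sum of 12 cell division genes was 1669, 1508 and 1713 CPM in control mice 101, 102 and 103, where mouse 102 did not stand out, and lay between 114 and 504 CPM in the No-Trp livers. Of 5 erythroid markers tested, 4 were called lower on the No-Trp diet, with sums over the list of 49.6, 494 and 331 CPM in control mice 101, 102 and 103 and 13.9 to 21.7 CPM in the No-Trp livers, while the globin genes Hba-a1, Hbb-bs and Hbb-bt were at 0 in all 6. The 9 oncofetal genes summed to 20464 to 25968 CPM in the control livers and 2064 to 12161 CPM in the No-Trp livers (1 of 9 called lower), 9 lymphocyte and granulocyte markers to 120 to 137 CPM and 8.38 to 65.8 CPM (1 of 8 tested called lower), and 10 endothelial markers to 145 to 286 CPM and 323 to 510 CPM (3 of 10 called higher). None of the 3 lists set control mouse 102 among the No-Trp livers, and none of their genes was at 0 in all livers. Reads of the ribosomal precursor Rn45s made up 12.1% of the reads on genes in control mouse 101, 2.22% in mouse 102 and at most 0.758% in the others. In bulk RNA, fewer cells of a type and less RNA per cell cannot be told apart, and the part that these marker levels have in the results below was not tested. Many results are therefore given with and without mouse 102, or mouse by mouse. Mouse 102 was singled out from the levels of these same genes. Leaving out the control that is highest in most members raises their fold changes and narrows the control spread. Counts and p-values without it therefore show how much that mouse weighs and are not separate tests of the diet.

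**Figure D1:**
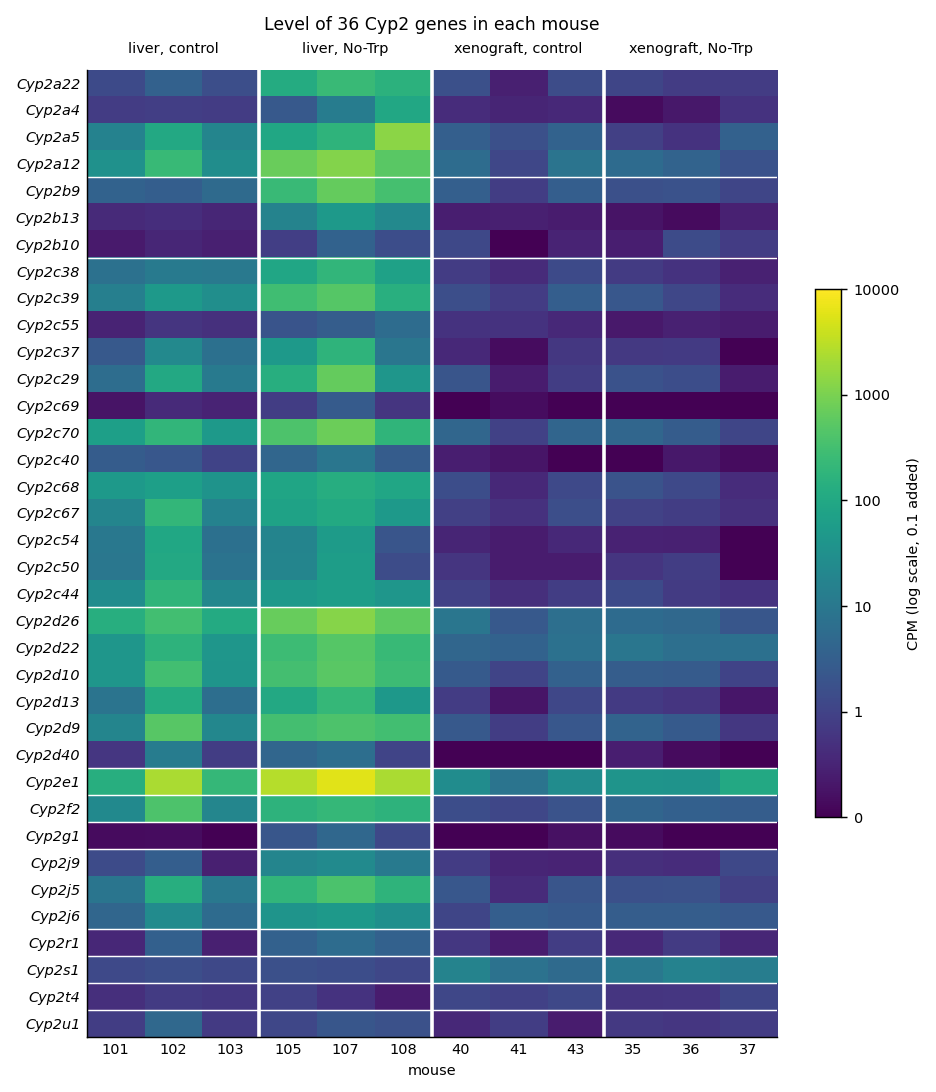
Level of the 36 Cyp2 genes tested in the livers (rows, grouped by subfamily) in each of the 12 mice (columns), as colour on a log scale of CPM with 0.1 added. Most rows are dark in control mice 101 and 103 and bright in the No-Trp livers, and control mouse 102 resembles the No-Trp livers in many rows but not in Cyp2b9, Cyp2b13, Cyp2a22 or Cyp2a4. The xenografts are darker in most rows, with Cyp2e1 the brightest. Cyp2s1 (5.28 to 17.0 CPM) comes next there, and rows such as Cyp2d22 (3.71 to 8.88 CPM) overlap it.

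In the livers, Cyp2 genes rose or did not pass the test, and none fell. With all 6 mice, 14 of the 36 members tested were called higher on the No-Trp diet, where 9.28% of all genes tested were called higher, and 0 were called lower, where 7.27% of all genes were. Among the 14, Cyp2b10, Cyp2b13, Cyp2c55, Cyp2c69 and Cyp2g1 had at most 11 reads in any control liver. They entered the test through their reads in the No-Trp livers, so their calls were not open in both directions. At an unadjusted p under 0.05 the number was 20 of 36, all of them higher, where 41.8% of all genes were under 0.05 in either direction. DESeq2 called 20 of 45 members, also all higher, where it called 8.75% of all genes higher. When libraries were scaled by their totals instead, the split of all genes turned from 1311 higher and 1026 lower to 732 higher and 1532 lower, while 11 members remained called, all higher and all among the 14. The median log2 fold change of the 36 members was 2.08, against −0.00 for all genes tested. In 19 of the 36 members every No-Trp mouse lay above every control mouse, as in 24.3% of all genes tested, and in 0 members did every No-Trp mouse lie below, as in another 24.3% of all genes. The other 17 members overlapped between the diets.

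The number of calls depended on which mouse was left out, among all genes as well as among the members. Without control mouse 102, 30 of 37 members tested were called higher, where 13.6% of all genes were, and all 37 lay above 0. That mouse was chosen from these same genes, and the choice favours a larger number. Without control mouse 103 only Cyp2b9 was called, where 0.0492% of all genes were called higher. Leaving out control mouse 101 left 4 members (Cyp2a22, Cyp2b9, Cyp2b13 and Cyp2c38, where 1.25% of all genes were called higher), No-Trp mouse 105 left 8 (2.06% of genes) and No-Trp mouse 108 left 12 (8.35%), all among the 14. Without No-Trp mouse 107, 8 of the 14 were called (4.6%), and Cyp2j8, which had too few reads with all mice, in addition.

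**Figure D2:**
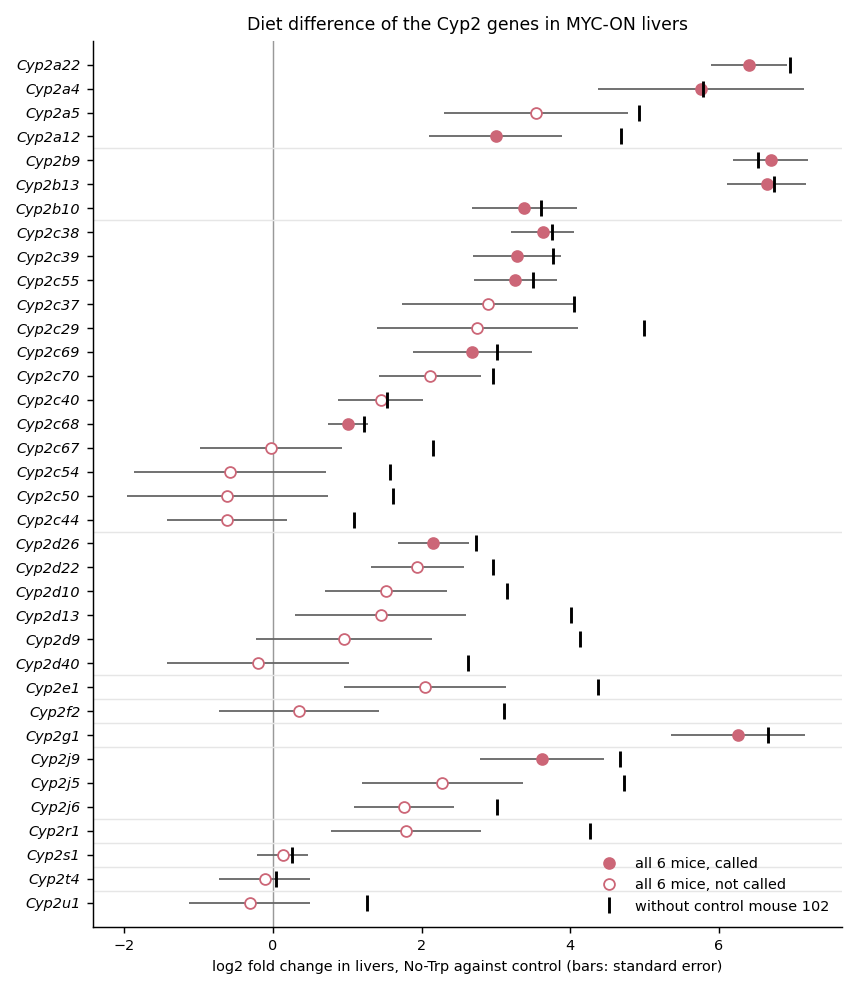
Log2 fold change between the diets in the livers for 36 Cyp2 genes (points, filled where called) with standard errors (bars), and the value without control mouse 102 (black ticks). The points reach from −0.62 for Cyp2c44 to 6.70 for Cyp2b9, and without mouse 102 the ticks of many open points, such as Cyp2d9, Cyp2f2 and Cyp2e1, lie above 3, whereas those of Cyp2b9, Cyp2b13 and Cyp2a4 hardly move. The value of Cyp2g1 rests on 2 control reads.

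The Cyp2b subfamily held the largest rises. Cyp2b9 and Cyp2b13 encode steroid and drug hydroxylases that are expressed mainly in adult female liver, and Cyp2b10 is the classical target gene of CAR. They lie in a cluster on chromosome 7, with Cyp2b13 at chr7:26061388-26096197 and Cyp2b9 at chr7:26173350-26210661 (GRCm38.p6, both on the plus strand), and their coding sequences are 92.7% identical, so reads may be split between them. The stretch before the start of the 2 genes, taken from RefSeq on GRCm38.p6, is shown because they rose together. It is printed from the first base that both windows hold up to the gene start (191 bases at chr7:26173159-26173349 for Cyp2b9 and 143 bases at chr7:26061245-26061387 for Cyp2b13, both 5′ to 3′), with capitals for the bases that differ between the 2 genes. Over the 250 aligned bases of the 2 windows, which run on past these gene starts into the genes, identity was 99.2%, with 2 substitutions.
Cyp2b9: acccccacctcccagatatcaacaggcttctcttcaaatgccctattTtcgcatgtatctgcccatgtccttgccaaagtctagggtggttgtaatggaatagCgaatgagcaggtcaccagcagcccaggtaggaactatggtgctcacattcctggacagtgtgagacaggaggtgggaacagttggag
Cyp2b13: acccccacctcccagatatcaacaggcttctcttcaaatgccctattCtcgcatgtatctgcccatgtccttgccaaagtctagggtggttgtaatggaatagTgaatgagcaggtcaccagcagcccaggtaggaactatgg

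Cyp2b9 was at 3.56, 3.05 and 5.25 CPM in control mice 101, 102 and 103 and at 242, 664 and 333 CPM in No-Trp mice 105, 107 and 108. The groups were far apart, and mouse 102 was the lowest control here. The means were 3.95 ± 1.15 CPM and 413 ± 222 CPM (SD, n = 3 each). The log2 fold change was 6.70 ± 0.51 (edgeR adjusted p = 0.00432), or 104-fold. Cyp2b9 was the only member called in each of the 6 fits that left out a mouse. Cyp2b13 was at 0.30, 0.34 and 0.25 CPM in the control mice and at 17.4, 49.9 and 22.6 CPM in the No-Trp mice, with a log2 fold change of 6.65 ± 0.53 (edgeR adjusted p = 0.00517). Both genes were highest in mouse 107 and lowest in mouse 105 within the No-Trp group. Cyp2b10 rose as well, from 0.18 ± 0.06 CPM to 1.95 ± 1.502 CPM (log2 fold change 3.38 ± 0.70, edgeR adjusted p = 0.0232). Cyp2b19 and Cyp2b23, which stand between Cyp2a4 and Cyp2g1, had at most 3 reads in any library and were not tested.

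Of the 4 Cyp2a genes, 3 were called higher, where 9.28% of all genes tested were, but single mice carried much of the level of Cyp2a4 and Cyp2a5. Cyp2a12, whose enzyme hydroxylates testosterone and bile acids, was at 34.4, 239 and 27.6 CPM in the control mice and at 722, 1158 and 524 CPM in the No-Trp mice. The groups did not overlap, although control mouse 102 lay well above the other controls. Its log2 fold change was 2.999 ± 0.90 (edgeR adjusted p = 0.0496), and 4.68 without mouse 102. Of the 6 fits with a mouse left out, only that without mouse 102 called it. Cyp2a22, 97.0% identical to Cyp2a12 in its coding sequence, was at 1.23, 3.39 and 1.49 CPM in the control mice and at 117, 240 and 160 CPM in the No-Trp mice. Its log2 fold change was 6.41 ± 0.51 (edgeR adjusted p = 0.00517), 85.2-fold, and was lost only without control mouse 103. Part of the reads of either gene may belong to the other.

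Cyp2a4 and Cyp2a5, a testosterone hydroxylase and the coumarin hydroxylase of the mouse, are the most similar pair, with 98.5% identical coding sequences. Their promoters, printed because so few bases set the copies apart and again with differing bases in capitals (5′ to 3′, plus strand, GRCm38.p6, 250 bases each at chr7:26306942-26307191 and chr7:26835089-26835338, from RefSeq), are 97.6% identical over 251 aligned columns, with 4 substitutions and 2 gap columns.
Cyp2a4: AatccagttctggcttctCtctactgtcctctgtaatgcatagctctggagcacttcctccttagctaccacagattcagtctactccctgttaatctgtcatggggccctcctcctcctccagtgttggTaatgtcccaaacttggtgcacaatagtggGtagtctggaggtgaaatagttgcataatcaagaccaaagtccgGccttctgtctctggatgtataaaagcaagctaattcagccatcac
Cyp2a5: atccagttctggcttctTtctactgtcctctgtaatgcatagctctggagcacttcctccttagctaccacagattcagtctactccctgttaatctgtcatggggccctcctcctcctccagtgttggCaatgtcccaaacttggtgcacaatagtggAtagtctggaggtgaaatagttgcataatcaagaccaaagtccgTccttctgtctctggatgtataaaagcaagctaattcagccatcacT

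Cyp2a4 was at 0.68, 0.74 and 0.67 CPM in the control mice and at 2.43, 12.5 and 99.2 CPM in No-Trp mice 105, 107 and 108, a log2 fold change of 5.76 ± 1.38 (edgeR adjusted p = 0.0302). The groups did not overlap, but the No-Trp mice differed among themselves far more than for Cyp2b9. Cyp2a5, which was chosen for a mouse-by-mouse account after its values were seen, was at 16.1, 103 and 18.7 CPM in the control mice and at 93.7, 179 and 1330 CPM in the No-Trp mice. Here the groups overlapped, since control mouse 102 lay above No-Trp mouse 105, and the log2 fold change of 3.54 ± 1.24 was not called (edgeR adjusted p = 0.0750). Mouse 108 alone held 19289 Cyp2a5 reads and 1439 Cyp2a4 reads, and without it the log2 fold changes were 1.57 for Cyp2a5 and 3.41 for Cyp2a4. In that mouse there were 254 Cyp2a5 reads per 100 Cyp2a12 reads, against 13.0 and 15.5 in No-Trp mice 105 and 107 and 43.4 to 67.6 in the control mice. Cyp2a4 reads came to 7.46 per 100 Cyp2a5 reads in mouse 108, close to the 6.98 of mouse 107 and above the 0.713 to 4.21 of the control mice. The part of reads shared between the copies was not tested.

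The gene cluster on chromosome 7 spans 1356 kb (chr7:25802469-27158564) with 13 members, from Cyp2s1 at the start to Cyp2t4 at the end. The 7 members called higher all lie between Cyp2s1 and Cyp2f2, with log2 fold changes from 2.999 for Cyp2a12 to 6.70 for Cyp2b9, and Cyp2a5 stands among them at 3.54. At the ends of the cluster log2 fold changes were 0.13 ± 0.35 for Cyp2s1, 0.35 ± 1.08 for Cyp2f2 and −0.11 ± 0.61 for Cyp2t4. Without control mouse 102 those of Cyp2s1 and Cyp2t4 were 0.26 and 0.05, but that of Cyp2f2 was 3.10 and called. Among the members in the middle, Cyp2g1 is known from the olfactory mucosa. It had 1, 1 and 0 reads in the control livers and 41, 83 and 16 reads in the No-Trp livers, a ratio of 96.4 after scaling (exact 95% interval 26.2 to 804, for counting error only). It was called by edgeR (adjusted p = 0.0146), but not without control mouse 101 or 103.

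**Figure D3:**
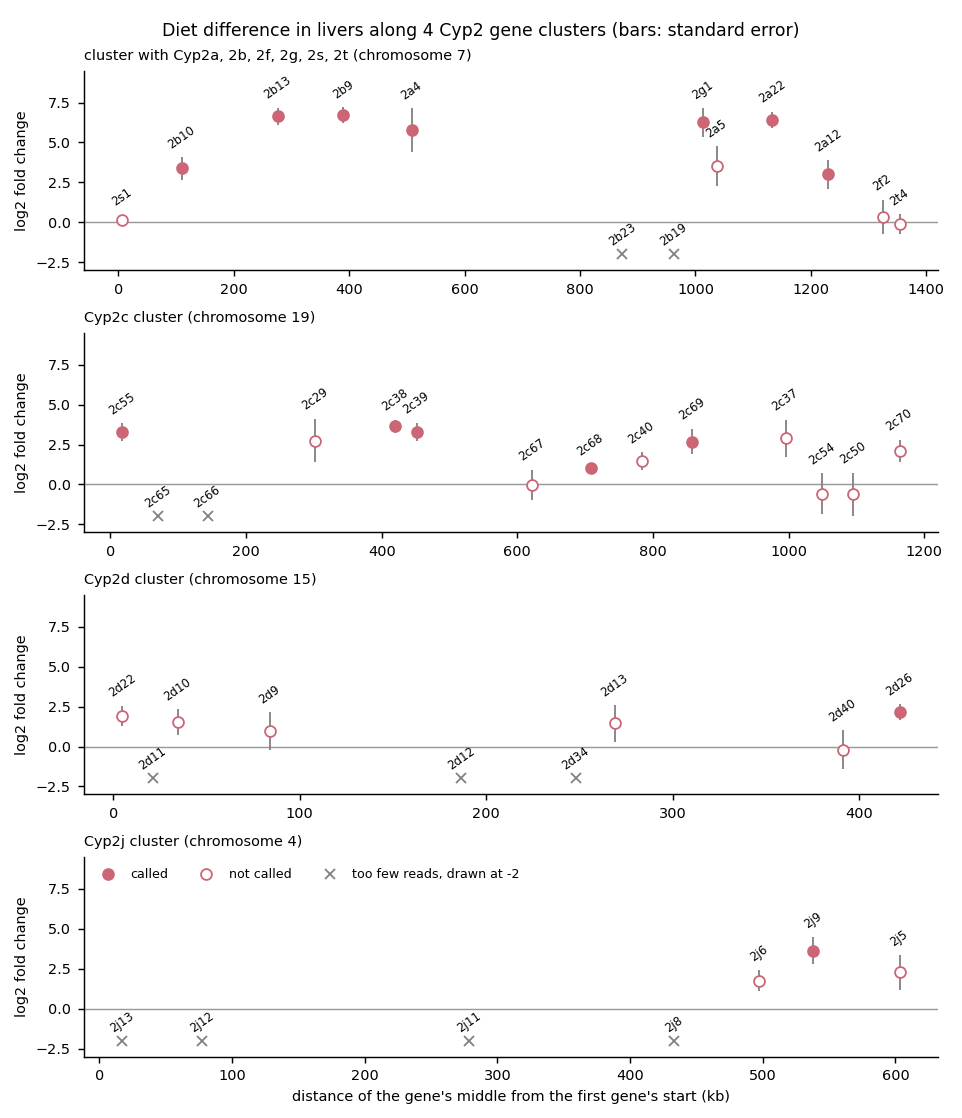
Log2 fold change between the diets in the livers (points, filled where called; bars, standard errors) against the distance of each Cyp2 gene from the first gene of its cluster, for the 4 clusters. On chromosome 7 the values lie between −0.11 and 0.35 at the ends (with all mice, since Cyp2f2 stands at 3.10 without control mouse 102) and reach 6.70 between them, on chromosome 19 the neighbours Cyp2c37 and Cyp2c54 stand at 2.90 and −0.58, and crosses mark genes with too few reads for the test.

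The Cyp2c subfamily was mixed. Of its 15 members, 13 were tested, 5 were called higher (Cyp2c38, Cyp2c39, Cyp2c55, Cyp2c68 and Cyp2c69) and log2 fold changes reached from −0.62 for Cyp2c44 to 3.63 for Cyp2c38, with a median of 2.11. Over all genes tested, 9.28% were called higher. Without control mouse 102 the number called was 9, where 13.6% of all genes were called higher. These enzymes oxidize arachidonic acid and other fatty acids, retinoids and drugs. Of the members, 14 lie within 1180 kb on chromosome 19 (chr19:39006940-40187286), and Cyp2c44 lies apart from them at chr19:44005022-44029256.

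Cyp2c38 was at 7.08, 11.6 and 10.5 CPM in the control mice and at 90.4, 196 and 74.0 CPM in the No-Trp mice. The groups were well apart and mouse 102 did not stand out, with a log2 fold change of 3.63 ± 0.43 (edgeR adjusted p = 0.0127). Cyp2c39, whose enzyme acts on retinoic acid, was at 14.2, 48.8 and 29.4 CPM and at 290, 470 and 140 CPM (log2 fold change 3.28 ± 0.59, edgeR adjusted p = 0.0196). The annotated span of Cyp2c39 contains Cyp2c38 on the opposite strand, their coding sequences are 94.2% identical and the strand setting of the counting is not stated, so the 2 counts cannot be fully separated. Cyp2c55, which is induced through CAR and PXR, was low, at 0.21, 0.49 and 0.39 CPM and at 1.93, 2.92 and 5.79 CPM (log2 fold change 3.26 ± 0.56, edgeR adjusted p = 0.0182), and it was highest in mouse 108. Cyp2c68 reached the fold threshold barely, with a log2 fold change of 1.00 ± 0.27 (edgeR adjusted p = 0.0360).

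Cyp2c70, the enzyme that makes the muricholic acids of mouse bile, is the least similar to the others among those of the cluster. It was at 66.8, 200 and 49.4 CPM in the control mice and at 408, 768 and 189 CPM in the No-Trp mice. Control mouse 102 lay above No-Trp mouse 108, and the log2 fold change of 2.11 ± 0.69 was not called (edgeR adjusted p = 0.0626), while without mouse 102 it was 2.96 and called. Its coding sequence is at most 69.8% identical to that of another member, that of Cyp2c55.

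The closely similar genes Cyp2c37, Cyp2c54 and Cyp2c50 stand next to each other, with coding identities of 95.1% to 96.1%. They were chosen for description after their values were seen. Cyp2c50 was at 9.58, 106 and 7.84 CPM in the control mice and at 18.7, 60.1 and 1.38 CPM in the No-Trp mice. The highest value was in control mouse 102 and the lowest in No-Trp mouse 108, and the log2 fold change was −0.61 ± 1.35. Cyp2c54 followed the same order, with its highest value of 95.7 CPM in mouse 102 and its lowest of 2.00 CPM in mouse 108. Cyp2c37 had a log2 fold change of 2.90 ± 1.16 that was not called (edgeR adjusted p = 0.106), and it too was lowest in mouse 108 within the No-Trp group, at 9.03 CPM. In mouse 108 there was 0.731 Cyp2c50 read per 100 Cyp2c70 reads, against 4.59 and 7.82 in mice 105 and 107 and 14.3 to 53.0 in the control mice. So mouse 108 combined the highest Cyp2a5 and Cyp2a4 levels with the lowest Cyp2c50 and Cyp2c54 levels of all 6 livers.

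In the Cyp2d subfamily, which contains the mouse relatives of the human drug-metabolizing enzyme CYP2D, 6 of 9 members were tested. Only Cyp2d26 was called higher, where 9.28% of all genes tested were. It was at 135, 312 and 114 CPM in the control mice and at 682, 1238 and 586 CPM in the No-Trp mice, without overlap, and its log2 fold change was 2.16 ± 0.48 (edgeR adjusted p = 0.0253). It was called in 2 of the 6 fits with a mouse left out, which lacked control mouse 102 or No-Trp mouse 108. The others ranged from −0.21 for Cyp2d40 to 1.94 for Cyp2d22. Cyp2d9, a testosterone hydroxylase expressed more in males and chosen here after its values were seen, was at 19.04, 494 and 20.1 CPM in the control mice and at 318, 408 and 306 CPM in the No-Trp mice. The highest of the 6 values belonged to control mouse 102, and the log2 fold change was 0.95 ± 1.19 with all mice and 4.13 ± 0.26 without that mouse (edgeR adjusted p = 6.57e-04). Without mouse 102 all 6 Cyp2d members tested were called higher, where 13.6% of all genes were, with log2 fold changes from 2.63 to 4.13. Cyp2d13, which RefSeq lists as a transcribed pseudogene, was among them.

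The member with the highest mean level per kb in both groups of livers was Cyp2e1, which oxidizes ethanol and acetaminophen. Per kb of exon it stood at 410 CPM in the control livers and 1691 CPM in the No-Trp livers, 37.9% and 38.9% of the sum of all members on that scale. Control mouse 102 carried much of the control mean, at 1069 CPM per kb, whereas Cyp2e1 was at 62.7 and 99.2 CPM per kb in mice 101 and 103, where Cyp2d26 was at 75.3 and 63.7 CPM per kb, so that in mouse 101 Cyp2d26 was ahead. It was at 135, 2308 and 214 CPM in the control mice and at 2783, 5839 and 2325 CPM in the No-Trp mice. Control mouse 102 lay just under No-Trp mouse 108, so the groups touched without overlap, and the log2 fold change of 2.04 ± 1.09 was not called (edgeR adjusted p = 0.199). Without mouse 102 it was 4.37 ± 0.57 and called (edgeR adjusted p = 0.00371). Cyp2f2, which oxidizes naphthalene and marks periportal hepatocytes, was at 23.8, 398 and 19.5 CPM in the control mice and at 173, 216 and 173 CPM in the No-Trp mice. Its highest value was in control mouse 102, and the log2 fold change moved from 0.35 ± 1.08 (edgeR adjusted p = 0.830) to 3.10 ± 0.23 without that mouse (edgeR adjusted p = 9.08e-04). For each 100 Cyp2f2 reads there were 568, 580 and 1095 Cyp2e1 reads in the control mice and 1611, 2700 and 1344 in the No-Trp mice, so that this ratio, unlike either level alone, did not set mouse 102 apart. Of 17 pericentral genes outside the family, 2 of 17 tested were called higher, where 9.28% of all genes tested were. Of 17 periportal genes, 7 of 16 tested were called higher and 1 lower. At an unadjusted p under 0.05, 7 pericentral genes were higher, and 9 periportal genes were higher and 2 lower. DESeq2 called 6 and 9 higher, and 0 and 1 lower. The pericentral sum was 707, 1967 and 691 CPM in the control mice and 1942, 2686 and 1767 CPM in the No-Trp mice. The periportal sum was 3178, 6406 and 3743 CPM and 15636, 24598 and 15349 CPM. These 2 lists were not counted without mouse 102.

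**Figure D4:**
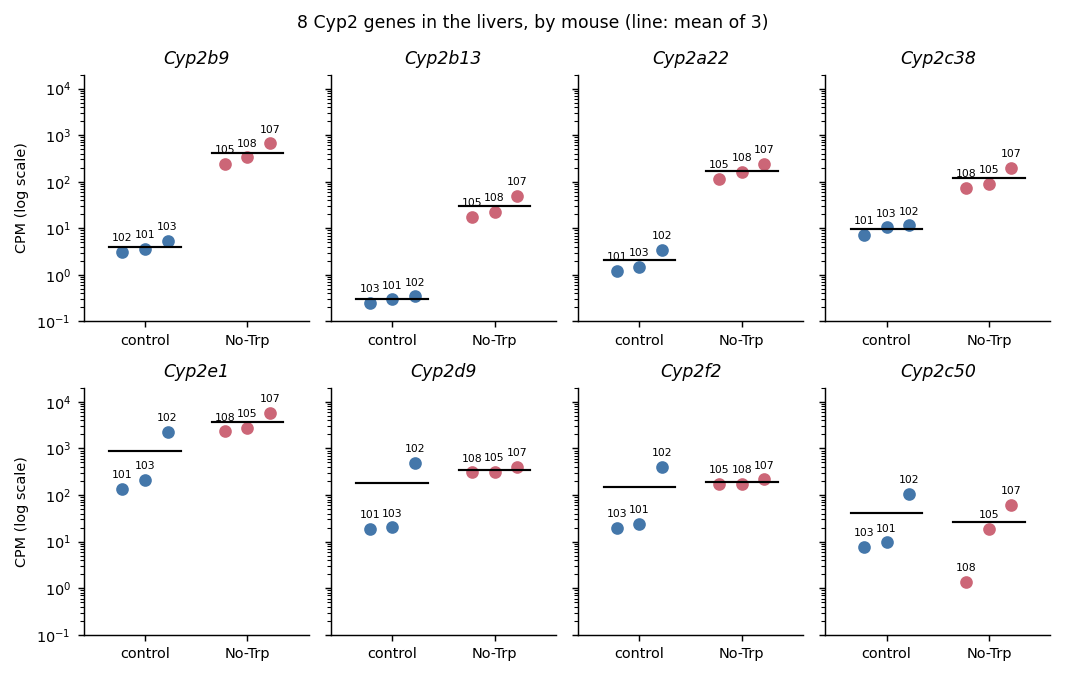
Level of 8 Cyp2 genes in each liver on a log axis of CPM, with the mouse number beside each point and a line at the mean of 3 mice. In the upper row (Cyp2b9, Cyp2b13, Cyp2a22, Cyp2c38) control mouse 102 lies with the other controls, and in the lower row (Cyp2e1, Cyp2d9, Cyp2f2, Cyp2c50) it lies with or above the No-Trp mice.

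The Cyp2j genes, whose enzymes turn arachidonic acid into epoxides, were called higher in 1 of the 3 members tested, where 9.28% of all genes were. Cyp2j9 was at 1.27, 3.05 and 0.18 CPM in the control mice and at 18.6, 24.5 and 11.4 CPM in the No-Trp mice (log2 fold change 3.63 ± 0.83, edgeR adjusted p = 0.0276). Cyp2j5, the most abundant of them per kb of exon, was at 8.82, 137 and 10.1 CPM and at 193, 388 and 178 CPM. The diets did not overlap, but with mouse 102 close to the No-Trp mice the log2 fold change of 2.28 ± 1.08 was not called (edgeR adjusted p = 0.157). Cyp2j8 had 0, 1 and 0 reads in the control livers and 15, 8 and 9 reads in the No-Trp livers, too few for the test, a ratio of 44.1 (exact 95% interval 7.36 to 1794). Cyp2j11 had no read in any library.

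The remaining subfamilies have 1 member each. Cyp2r1, a vitamin D hydroxylase, was at 0.25, 3.35 and 0.18 CPM in the control mice and at 3.55, 5.73 and 3.52 CPM in the No-Trp mice. Its log2 fold change was 1.79 ± 1.01 (edgeR adjusted p = 0.220) with all mice and 4.27 ± 0.51 without mouse 102 (edgeR adjusted p = 0.00292). Cyp2u1, a fatty acid hydroxylase, was at 0.72, 4.72 and 0.60 CPM and at 1.06, 2.09 and 1.66 CPM, so that mouse 102 was again the highest of all. Cyp2s1, an enzyme of epithelia, was at 1.14, 1.48 and 1.10 CPM and at 1.57, 1.43 and 1.03 CPM, and Cyp2t4 at 0.38, 0.64 and 0.53 CPM and at 0.81, 0.44 and 0.14 CPM. Neither was called in any of the 6 fits with a mouse left out. Cyp2w1 had at most 3 reads in any library. In all, 12 members were not tested in the livers, none of them with more than 15 reads in any liver, and 2 (Cyp2c66 and Cyp2j11) had no read in any of the 12 libraries.

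Most members known for higher expression in female liver rose. Of 7 such members (Cyp2a4, Cyp2a22, Cyp2b9, Cyp2b13, Cyp2c40, Cyp2c69 and Cyp2g1), 6 were called higher, where 9.28% of all genes tested were. Log2 fold changes of the 6 reached from 2.68 for Cyp2c69 to 6.70 for Cyp2b9 beside the few reads of Cyp2g1, and Cyp2c40 was at 1.45 ± 0.57 (edgeR adjusted p = 0.0979). With a mouse left out, Cyp2c69 was called in 1 of 5 fits and Cyp2a4 in 3 of 6. Cyp2b13, Cyp2c69 and Cyp2g1 entered the test through the No-Trp livers, as said above. The summed level of the 7 members was 8.69, 10.1 and 8.80 CPM in the control mice and 386, 983 and 619 CPM in the No-Trp mice, and control mouse 102 did not stand out. The male-biased members Cyp2d9 and Cyp2u1 were not called by edgeR or DESeq2, also not at an unadjusted p under 0.05, and their sum was 19.8, 499 and 20.7 CPM in the control mice and 319, 410 and 308 CPM in the No-Trp mice. Without control mouse 102 Cyp2d9 was called higher, as above, and Cyp2u1 turned from −0.31 to 1.26, not called, so mouse 102 decided how these genes stood against the female-biased ones. Outside the family, 7 of 13 female-biased genes tested were called higher, again beside 9.28% of all genes, with the largest rise in Cyp3a44 (log2 fold change 7.64 ± 1.19, edgeR adjusted p = 0.0171). Of 14 male-biased genes tested, edgeR called 0 in either direction, where 9.28% of all genes were called higher and 7.27% lower. At an unadjusted p under 0.05, 3 of the 14 were lower and DESeq2 called 3 lower, with a median log2 fold change of −0.92. The sum of the male-biased genes was 193, 1783 and 147 CPM in the control mice and 393, 502 and 303 CPM in the No-Trp mice. Without control mouse 102 this direction turned: 8 of the 14 were called higher and 1 lower, with a median of 2.04, while of the female-biased genes outside the family 7 of 13 were still called higher. In that fit 13.6% of all genes were called higher. These gene lists were written by hand from general knowledge, and all liver mice are males by their labels.

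Several partners and regulators of these enzymes were higher too, where 9.28% of all genes tested were called higher. The lists in this paragraph were not counted without mouse 102. Por, the reductase that serves all of them, was at 117, 264 and 148 CPM in the control mice and at 1238, 2441 and 1249 CPM in the No-Trp mice (log2 fold change 3.22 ± 0.45, edgeR adjusted p = 0.0142). It was 1 of 3 genes called higher among 14 redox partners and haem supply genes. Nr1i3, the gene of CAR, was at 18.2, 59.1 and 18.02 CPM and at 224, 423 and 199 CPM (log2 fold change 3.15 ± 0.58, edgeR adjusted p = 0.0196), and Nr1i2, the gene of PXR, at 77.7, 96.1 and 71.8 CPM and at 205, 224 and 233 CPM (log2 fold change 1.43 ± 0.17, edgeR adjusted p = 0.0127). Among 30 regulators of Cyp2 genes, 12 were called higher, with the largest rise in the estrogen receptor gene Esr1 beside Nr1i3 (log2 fold change 3.15 ± 0.89, edgeR adjusted p = 0.0434). Of 25 CAR and PXR target genes outside the family, 12 were called higher and 1 lower, from the organic anion transporter Slco1a4 (4.22 ± 0.58) to the drug efflux pump Abcb1a (−1.24 ± 0.24). The sum of these targets was 1095, 3109 and 1065 CPM in the control mice and 7568, 11664 and 8395 CPM in the No-Trp mice. The P450 genes of other families summed to 578, 2072 and 503 CPM in the control mice and 5740, 10349 and 6038 CPM in the No-Trp mice. Among them, 18 of 37 tested were called higher. Here edgeR called 0 lower, 4 were lower at an unadjusted p under 0.05 and DESeq2 called 4 lower, and Cyp4a12a had the lowest value, −3.12 ± 1.13 (edgeR adjusted p = 0.0822).

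Short motifs were counted in RefSeq promoter windows, here the 250 bases before the annotated start. They were found for 40 of the 48 members (42 windows). The TATA box motif TATAAA was in 42.9% of the members' windows and in 12.4% of the 32851 windows of all genes. The motif CAAAGTCCA, a form of the site bound by HNF4A, was in 14.3% of the members' windows and 0.384% of all windows. All 6 of these were Cyp2c genes of the cluster (Cyp2c40, Cyp2c65, Cyp2c67, Cyp2c68, Cyp2c69 and Cyp2c70), which are alike in sequence. The STAT motif TTCNNNGAA was in 4.76% of the members' windows and 7.02% of all windows. The HNF1 motif GTTAATNAT was in 0 of the members' windows and in 0.737% of all windows. All motifs were searched on both strands. A match is a description of these letters only.

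In the xenografts, Cyp2 genes were low and none passed the edgeR test between the diets. Cyp2 reads made up 0.0036% to 0.0149% of the reads on genes. Of 27 members tested, edgeR called 0, where 0.36% of all genes tested were called, and 2 (7.41%) had an unadjusted p under 0.05, where 16.9% of all genes had. These were Cyp2e1 and Cyp2f2. Scaling by library totals turned the split of all genes from 36 higher and 17 lower to 60 higher and 11 lower, with 0 members called. Cyp2e1 was at 27.5, 8.23 and 26.3 CPM in control tumors 40, 41 and 43 and at 39.2, 37.0 and 105 CPM in No-Trp tumors 35, 36 and 37. The groups did not overlap, and the log2 fold change was 1.55 ± 0.58 (edgeR adjusted p = 0.257), between 0.90 and 1.81 with each tumor left out. DESeq2 called it (adjusted p = 0.0243). Tumor 37, the highest in Cyp2e1, was also the highest in the summed level of 7 adipocyte markers, with 990 CPM against 594 and 460 CPM in tumors 35 and 36 and 16.3, 79.2 and 18.1 CPM in control tumors 40, 41 and 43. Of these markers 4 were called higher in the No-Trp tumors, and none was at 0 in all tumors. The summed level of 6 skeletal muscle markers was also highest in tumor 37, with 72.1 CPM against 49.7 and 35.3 CPM in tumors 35 and 36 and 2.05, 3.71 and 22.2 CPM in control tumors 40, 41 and 43, with 5 of the 6 higher at an unadjusted p under 0.05 and 0 called by edgeR. DESeq2 called 1 of them. None was at 0 in all tumors. The part of these markers in the Cyp2e1 values was not tested. Cyp2f2 was at 1.39, 1.08 and 1.81 CPM in the control tumors and at 4.22, 3.36 and 2.86 CPM in the No-Trp tumors (log2 fold change 1.29 ± 0.40, edgeR adjusted p = 0.174).

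The genes with the largest rises in the livers had no such differences in the tumors. Cyp2b9 was at 3.11, 0.72 and 3.06 CPM in the control tumors and at 1.58, 1.72 and 1.02 CPM in the No-Trp tumors (log2 fold change −0.66 ± 0.58). Cyp2a22 was at 1.55, 0.18 and 1.32 CPM and at 1.01, 0.67 and 0.68 CPM (−0.35 ± 0.71), and Cyp2c38 at 0.67, 0.32 and 1.25 CPM and at 0.65, 0.45 and 0.19 CPM (−0.74 ± 0.68). Control tumor 41 was the lowest of its group for all 3. Over the 27 members the log2 fold changes ranged from −0.87 for Cyp2a5 to 1.55 for Cyp2e1, with a median of −0.12 against −0.00 for all genes.

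Whether the diet difference itself differed between livers and xenografts was tested with an interaction term, for which 1 fit took in the 12 libraries and in which a negative value means a larger rise in the livers. Of 36 members tested, 8 were called, all negative, where 12.7% of all genes tested were called in either direction (1036 positive and 930 negative, or 1825 and 437 with library totals, which called 7 of the 8 members). The values were −7.32 ± 0.93 for Cyp2b13 (edgeR adjusted p = 0.00281), −7.30 ± 0.75 for Cyp2b9 (0.00165), −6.69 ± 0.85 for Cyp2a22 (0.00327) and −6.30 ± 1.91 for Cyp2a4 (0.0462). The others were −4.58 ± 0.80 for Cyp2c55 (0.00789), −4.27 ± 0.77 for Cyp2c38 (0.00891), −3.72 ± 0.99 for Cyp2c39 (0.0302) and −2.64 ± 0.77 for Cyp2d26 (0.0410). The calls of Cyp2b9, Cyp2b13, Cyp2a22, Cyp2c38 and Cyp2c55 were kept in each of the 12 fits that left out a library, those of Cyp2c39 in 5, of Cyp2d26 in 3 and of Cyp2a4 in 2. Without control mouse 102 the number of members called was 21 of 38 tested, all negative, where 16.2% of all genes were called in either direction and 8.75% negative. Cyp2b13, Cyp2a4 and Cyp2c55 had only 1 to 10 reads in each tumor and entered this fit through the livers, so their values describe the rise in the livers against tumors near 0 reads. For Cyp2e1 the value was −0.47 ± 1.30 (edgeR adjusted p = 0.840), and −2.81 without control mouse 102, where it was called.

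**Figure D5:**
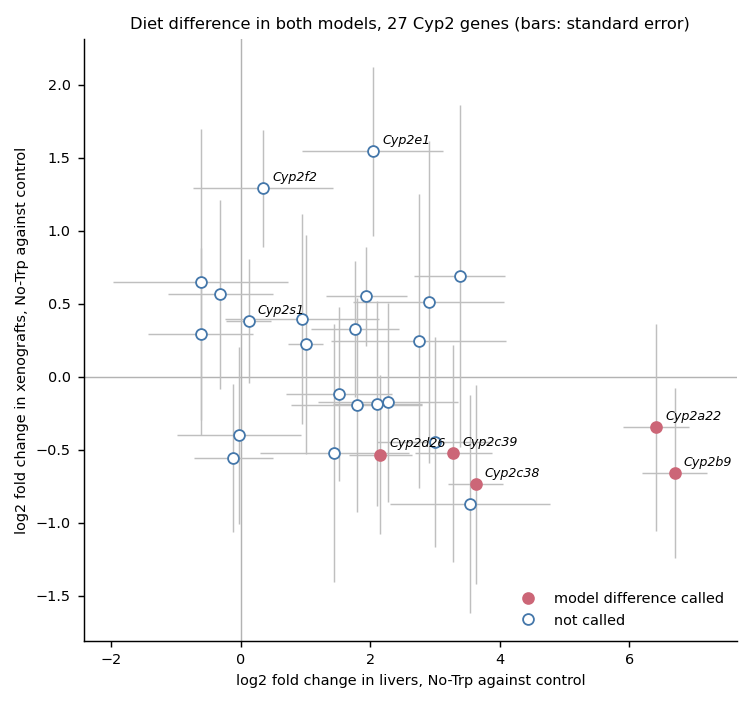
Log2 fold change between the diets in the livers (horizontal) and in the xenografts (vertical) for the 27 Cyp2 genes tested in both, with standard errors, filled where the difference between the models was called (5 of them here). Cyp2b9 and Cyp2a22 lie far to the right and slightly under 0, and Cyp2e1 has the highest value in the xenografts, 1.55.

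On either diet most Cyp2 genes were lower in the xenografts than in the livers. On the control diet 26 of 36 members tested were called lower, where 20.2% of all genes were, and on the No-Trp diet 32 were, where 19.1% of all genes were. Only 27 of the 36 had enough reads in the xenografts to be tested there. The others, such as Cyp2g1 and Cyp2d40, entered this fit through the livers, so a lower level in the tumors was close to given for them. Library totals turned the split of all genes on the No-Trp diet from 3796 higher and 2959 lower to 5797 higher and 2024 lower, with the same 33 members called. Cyp2s1 was the only member called higher on either diet, where 23.3% of all genes were between the controls and 24.5% between the No-Trp groups. It was at 17.0, 7.64 and 5.28 CPM in control tumors 40, 41 and 43 and at 9.77, 16.2 and 13.0 CPM in No-Trp tumors 35, 36 and 37, with log2 fold changes of xenograft over liver of 2.64 ± 0.43 between the controls (edgeR adjusted p = 2.41e-04) and 2.92 ± 0.44 between the No-Trp groups (edgeR adjusted p = 1.20e-04). Both calls were kept in each of the 12 fits with a library left out. Cyp2s1 took 5.74% to 20.2% of all Cyp2 reads in the tumors and at most 0.165% in the livers. An antisense transcript, Gm45226, overlaps it. The tumors were also high in 7 cholangiocyte and progenitor markers, with sums of 3299 to 12224 CPM against 80.7 to 151 CPM in the livers on their own scale.

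Among the members lower in the tumors, Cyp2e1 differed by a log2 fold change of −5.80 ± 1.13 between the controls and −6.26 ± 1.15 between the No-Trp groups (edgeR adjusted p = 9.87e-04 and 6.46e-04). Cyp2c38 differed by −4.13 ± 0.52 and −8.41 ± 0.59, and Cyp2d26 by −5.36 ± 0.63 and −8.00 ± 0.71. Cyp2d40 had 0 reads in the 3 control tumors and 280 in the control livers, at least 90.9-fold lower when the tumors are set at 3 reads over the group. Control mouse 102 held 248 of the 280 reads, and without it the 32 reads left gave at least 14.4-fold. Cyp2b9 and Cyp2a22, which are low in control livers, were not called on the control diet (−1.19 ± 0.51 and −1.40 ± 0.59, edgeR adjusted p = 0.0611 and 0.0595) and were at −8.48 ± 0.62 and −8.09 ± 0.65 on the No-Trp diet. Cyp2t4 did not pass the test on either diet, with 0.57 ± 0.57 and 0.15 ± 0.58, and neither did Cyp2b10, with 0.88 ± 1.16 and −1.79 ± 0.99. The 11 hepatocyte markers summed to 855 to 2654 CPM in the tumors, and none was at 0 in all of them. Between the diets edgeR and DESeq2 called 0 of the 11 there, and 0 had an unadjusted p under 0.05.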

How the data were processed

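Each of the 12 mice gave 1 RNA-seq library. Per the labels the sequencing was bought in. After trimming in Trim Galore and alignment to mm10 by STAR (2.7.2b in the submitters' processing notes), the authors counted reads per gene symbol with HTSeq and deposited the whole counts without normalization. How strand and overlapping genes were handled is not given in the sources used here. Reads left out by that counting (24.7% to 39.4% per library) entered no library size or test.

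Livers and xenografts were fitted separately, and the interaction and the comparisons between models in 1 fit of all 12 libraries, with edgeR 4.0.16 in R 4.3.3 (TMM, filterByExpr, robust glmQLFit, glmQLFTest, two-sided, Benjamini-Hochberg over all genes tested). edgeR's spread between mice over all genes was 31.6% in the livers and 28.7% in the xenografts. A ratio for genes with few reads is given with an exact (Clopper-Pearson) interval for counting error. No library was a copy of another of its group: chi-square per degree of freedom between replicates was 34.6 to 274. Libraries of different groups were not compared in this way. Positions are those of RefSeq on GRCm38.p6 (47 members matched by symbol, Cyp2c44 by synonym), and exon lengths and coding sequences those of GENCODE M21.

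The members and the 23 gene lists were chosen with earlier results of these data known. In each subfamily the member with the highest mean CPM and that with the largest change in the livers were described mouse by mouse, with each member called in the xenografts or by the interaction. Cyp2a5, Cyp2b10, Cyp2c37, Cyp2c50, Cyp2c54, Cyp2c68, Cyp2d9, Cyp2d40 and Cyp2j8 were singled out after their values were seen. Genes outside the family are the largest rise and fall of a list, Por, Nr1i3 and Nr1i2. Alternatives were RLE factors, library totals, no filter, at least 10 counts in every library, DESeq2 1.42.0, a mark of resubmission (livers 101 and 108, xenografts 41 and 43) as a covariate, leaving out Rn45s, each library in turn, 1 fit for all libraries, and no threshold on the fold change. The fits were tested on simulated data.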

Additional observations from a re-analysis of the deposited data

Results flagged for a closer look

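The diet difference of 8 members differed between xenografts and livers by the interaction term of the 12-library edgeR fit (adjusted p at most 0.05). On the log2 scale, xenografts minus livers, the differences were −7.32 for Cyp2b13, −7.30 for Cyp2b9, −6.69 for Cyp2a22, −6.30 for Cyp2a4, −4.58 for Cyp2c55, −4.27 for Cyp2c38, −3.72 for Cyp2c39 and −2.64 for Cyp2d26. In the xenografts Cyp2a4, Cyp2b13 and Cyp2c55 had too few reads for a test between the diets on their own.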

How the results depend on the processing

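The number of members called higher in No-Trp livers, 14 with all mice, was 7 when at least 10 counts were required in every library, a rule that left 28 members, and between 1 (without control mouse 103) and 30 (without control mouse 102) with a library left out. No member was called lower in the livers under any of these alternatives. In the xenografts DESeq2 called 1 member, Cyp2e1. The interaction called 5 members without a filter, 2 with at least 10 counts in every library (12 members left), and 5 to 21 with a library left out. The members lower in xenografts, 26 and 32, were 10 in the control groups and 11 in the No-Trp groups with at least 10 counts in every library, again with 12 members left. Scaling by library totals moved the all-gene median of the log2 fold change to −0.30 in the livers, 0.11 in the xenografts and 0.41 for the interaction. With it Cyp2s1 in the livers was at −0.17, above that median. Among the genes named by the rule, signs also changed for genes not called with all mice: Cyp2f2 was at −0.16 and −0.20 without control mice 101 and 103 (range −0.20 to 3.10 with a mouse left out), Cyp2t4 between −0.78 and 0.28 (0.05 without control mouse 102, 0.28 when No-Trp mouse 108 was out), and Cyp2u1 between −0.78 and 1.26, the latter without control mouse 102. Of all 36 members 7 changed sign without control mouse 102, and of these Cyp2c44 (1.09), Cyp2c67 (2.15) and Cyp2d40 (2.63) were then called higher, as Cyp2c50 (1.61) and Cyp2c54 (1.58) were not. Over 26 single-gene results and 393 values under alternatives, 321 kept direction and call, 59 lost the call, 7 gained it and 6 changed sign. The cause of these changes was not tested, apart from the smaller number of members left. With resubmission as a covariate 15 members were called higher in the livers, 13 of them among the 14, and the median log2 ratio of the members was 1.70 among the livers without the mark and 2.45 between the 2 livers with it. Both marked xenografts are on the control diet, so no value can be had among the marked tumors. Among the unmarked tumors, 1 control against 3 No-Trp, the median log2 ratio of the members was −0.27, with 6 of 27 above 0. With the covariate 20 of the 27 kept their sign and 0 were called. No paired analysis was possible because no groups share replicate numbers. Counting error limits only the members with few reads. For the others the spread between mice is larger.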

Other observations

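Ratios of reads within a library, which do not depend on scaling, were also set side by side. There were 10.4, 1.28 and 19.02 Cyp2b9 reads per 100 Cyp2a12 reads in control livers 101, 102 and 103, 33.6, 57.4 and 63.5 in No-Trp livers 105, 107 and 108, and 28.9 to 69.6 in the 6 xenografts, on both diets. The tumors thus held few reads of both genes but in a ratio within or near the range of the No-Trp livers. Per 100 Cyp2d26 reads there were 14.1, 158 and 17.6 Cyp2d9 reads in the control livers, 46.7, 33.0 and 52.3 in the No-Trp livers and 26.2 to 69.9 in the xenografts. Per 100 Cyp2c70 reads there were 9.21, 53.0 and 22.1 Cyp2c29 reads in the control livers and 33.3, 84.1 and 22.2 in the No-Trp livers. In the xenografts there were 14.3 to 51.4, a range that takes in values of both groups of livers. Cyp2c50 reads came to 0 to 25.7 per 100 Cyp2c70 reads there, and Cyp2a5 reads to 11.5 to 197 per 100 Cyp2a12 reads. These ratios were chosen after the values were seen, and the source of the few reads in the tumors was not tested.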
